A study of Mus musculus with 10 samples.

Results

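The genes described here are 32 genes of ribosome biogenesis and of the nucleolus, followed through 10 mouse T cell lymphomas that carry NPM-ALK, the fusion of nucleophosmin and the kinase ALK that drives anaplastic large cell lymphoma in people. They were taken from a list of names. A gene entered through a probe set annotated with its symbol and no other, and the brightest was taken where there were several. This gave a value for 30 of the 32 genes, all 30 among the 12670 genes tested in the series, and no probe set named Ppan or Noc2l alone.

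Ribosomes are built in the nucleolus, where RNA polymerase I copies the ribosomal DNA and small nucleolar RNPs (snoRNPs, RNA-protein particles) modify and guide the cutting of the transcript. Separate sets of factors then fold and trim the precursors of the small and the large subunit. In lymphocytes this machinery is built up when a cell begins to grow, and many of its genes, together with genes for polyamine and pyrimidine synthesis, are known targets of the transcription factor Myc.

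The question behind the series was how loss of WASP, a regulator of the actin skeleton in blood cells, alters these lymphomas. All 10 mice carried the NPM-ALK transgene on a C57BL/6 background and developed a lymphoma of the mediastinum at 4 to 5 months of age. In 5 of them the Was gene was intact (genotype WT, here WASP-intact 1 to 5) and in the other 5 it was lost (genotype WASP -/-, here WASP-deficient 1 to 5). The animals were untreated. Males and females lacking WASP were used, the sex of each animal was not given, and the promoter of the transgene was not named in the labels. Each tumour was 1 primary lymphoma of 1 mouse, so its RNA mixes tumour cells with cells of the host, and fewer cells of a type and less RNA per cell cannot be told apart.

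Every level below is a log2 intensity of 1 Affymetrix array per tumour, and every difference is a difference of log2 levels, WASP-deficient minus WASP-intact. Was itself read 9.11 to 9.34 on the WASP-intact and 7.92 to 8.20 on the WASP-deficient arrays, a difference of -1.14 (SE 0.08) with an adjusted p of 0.00088 in limma (a linear model whose gene variances are moderated across genes, with Benjamini-Hochberg adjustment) and in the direction of the labels. The T cell marker Cd3e was high in all 10 tumours, at 12.06 to 12.59. Cd2, another T cell surface gene, divided the tumours: it read 11.18 on WASP-intact 4, 11.30 on WASP-intact 5 and 11.52 on WASP-deficient 1, against 6.10 to 6.90 on the other 7 arrays. The same 3 tumours, called Cd2-high here because their Cd2 level was 9 or more, had less Cd3d (5.26 to 6.47 against 8.96 to 10.08) and less Cd3g (6.29 to 10.24 against 11.45 to 12.23). The median level of all tested genes was 8.60 to 8.67 on 9 arrays and 8.44 on WASP-deficient 3. The array medians over all probe sets were close, at 116.7 to 122.7 in linear units. A value of WASP-deficient 3 relative to the others may thus carry a shift of the tested genes, and how that shift depends on level was not tested.

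Promoters of 6 members held the E-box CACGTG, the sequence that Myc binds as a dimer with Max. RefSeq promoter windows (assembly GRCm38.p6, 250 bases before to 50 after a start site) were listed for 27 of the 32 genes and both strands of this palindrome were searched. The 6 windows made up 22.2% of those 27. Among the 25 genes with both a window and a level the share was 24.0%, against 1162 of 10095 tested genes (11.5%) and 8.09% of all 27025 genes of the table (7.15% of its 32851 windows). The stretches around the motif follow because Myc is a known regulator of this pathway; the motif is in capitals, the sequences read 5′ to 3′ along the gene, and a match is a description of these letters, not a bound site.
Hspd1: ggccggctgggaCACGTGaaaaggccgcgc
Nop2: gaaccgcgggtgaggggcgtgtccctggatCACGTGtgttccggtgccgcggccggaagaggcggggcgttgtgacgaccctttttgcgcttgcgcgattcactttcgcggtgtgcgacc
Pes1: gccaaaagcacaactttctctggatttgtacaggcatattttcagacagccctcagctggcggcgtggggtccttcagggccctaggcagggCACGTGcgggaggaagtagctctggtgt
Wdr43: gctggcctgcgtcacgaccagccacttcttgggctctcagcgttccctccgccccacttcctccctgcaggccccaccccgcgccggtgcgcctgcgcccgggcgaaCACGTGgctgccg
Utp20: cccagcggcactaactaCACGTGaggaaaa
Mybbp1a: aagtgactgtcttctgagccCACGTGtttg

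The motif began 80 bases before a start site of Hspd1 (chr1:55088306-55088335, minus strand) and 60 bases before that of Nop2 (chr6:125131793-125131912, plus strand). In the other 4 it lay just inside the transcribed part: 2 bases after the start in Pes1 (chr11:3963885-3964004, plus strand), 17 after it in Wdr43 (chr17:71616125-71616244, plus strand), 37 after it in Utp20 (chr10:88826765-88826794, minus strand) and 40 after it in Mybbp1a (chr11:72441347-72441376, plus strand). These 6 genes have different roles. Nop2 and Pes1 act on the large subunit, Wdr43 and Utp20 on the small subunit, and Mybbp1a on ribosomal DNA transcription. Hspd1, a mitochondrial chaperonin, is listed in the set but is not a step of ribosome assembly.

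No difference of the set by genotype was detected with 5 tumours a side. The mean level of the 30 genes, each centred on its own mean over the 10 arrays, was 0.01 ± 0.09 (SD, n = 5) with WASP and -0.01 ± 0.12 (SD, n = 5) without it. By tumour this score was 0.06, 0.07, 0.08, -0.13 and -0.05 for WASP-intact 1 to 5 and -0.09, 0.19, -0.01, -0.02 and -0.10 for WASP-deficient 1 to 5. The genotypes overlapped throughout, with both the highest tumour (WASP-deficient 2) and 3 of the 5 lowest among the WASP-deficient ones. WASP-deficient 2 was the tumour of highest level for 13 of the 30 genes, WASP-intact 4 the lowest for 11 and WASP-deficient 5 the lowest for 7. With each array centred on the median of its tested genes the score of WASP-deficient 3 moved from -0.01 to 0.17, and that of WASP-deficient 2 from 0.19 to 0.15. Centring applies the same shift to genes of every level, and whether that is right for these genes was not tested.

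None of the 30 genes passed an adjusted p of 0.05 in limma, where 1 of all 12670 genes did (0.00789%), and each of them had an adjusted p of 0.999. None reached an unadjusted p under 0.05 either, against 366 of all genes (2.89%), and none had genotypes that did not overlap, against 72 of all genes (0.568%). The differences ran from -0.21 (Utp20) to 0.17 (Odc1), with 12 genes higher and 18 lower (15 and 15 with arrays centred on their medians or with quantile normalization repeated) and a median of -0.018 beside -0.0038 for all tested genes. Their 95% intervals, each for a single gene and without adjustment, show how much change the values allow. Of the 30, 27 lay wholly within 0.5 either way. The bounds that reached farthest were -0.54 for Utp20 and 0.71 for Cad, the latter a 1.64-fold increase. Under the 25 alternative settings no member passed, and the median ran from -0.1223 to -0.0005.

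**Figure D1:**
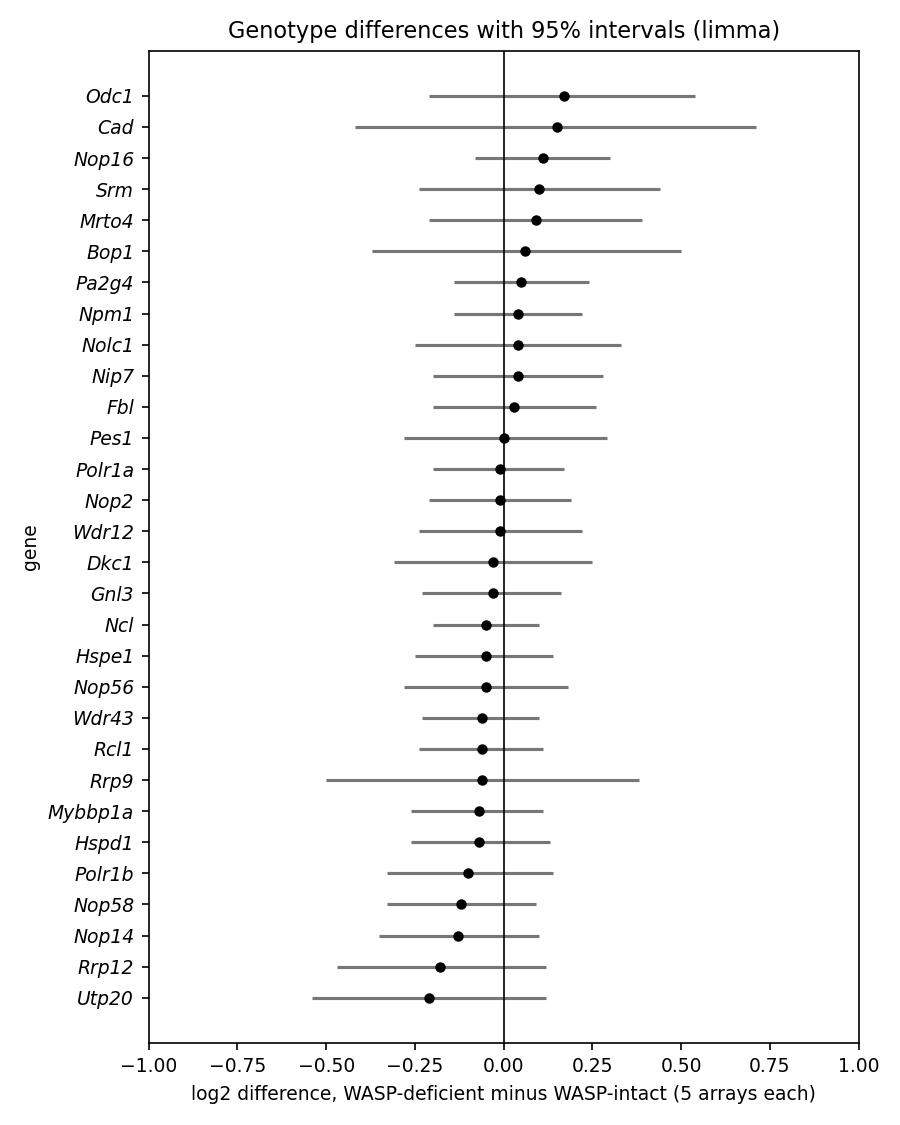
Genotype difference of each of the 30 genes (log2 intensity, WASP-deficient minus WASP-intact, 5 arrays each; points) with its 95% interval from limma (lines), sorted by size. Every interval spans 0, the widest being that of Cad from -0.42 to 0.71.

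Markers of other cell types differed in mean between the genotypes, though none of them passed the adjusted threshold. All 8 tested epithelial markers were higher without WASP. Of these 5 had an unadjusted p under 0.05 in limma, as did 2.89% of all genes. The score of these markers was -0.88 to 0.14 on WASP-intact and -0.09 to 0.78 on WASP-deficient arrays. Of 10 macrophage markers 9 were higher, 3 at that p, and of 6 adipocyte markers 5 were lower, 4 at that p. All 9 fibroblast markers were lower, 2 at that p (median -0.383), and all 7 muscle markers were lower, 0 at that p (median -0.392). The muscle score was 1.64 in WASP-intact 4, -0.32 to 0.17 in the other WASP-intact tumours and -0.34 to -0.13 without WASP. The highest fibroblast scores were those of the Cd2-high tumours WASP-intact 4 (0.78), WASP-intact 5 (0.71) and WASP-deficient 1 (0.34). The part of these cell type markers in the members' differences was not tested.

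The plot of all 30 genes by tumour shows the set by role, with the 3 Cd2-high tumours apart on the right.

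**Figure D2:**
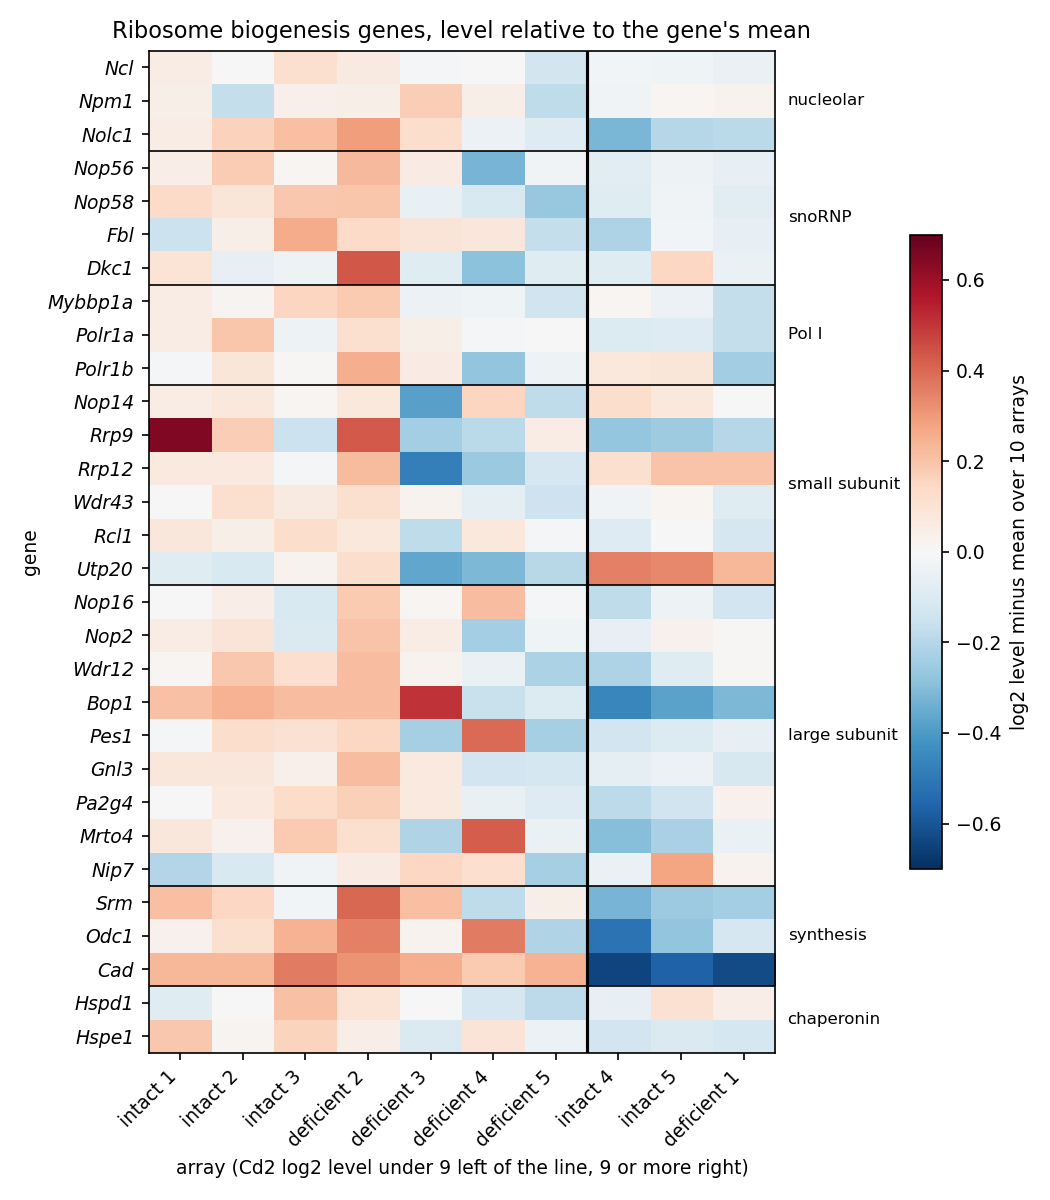
Level of each gene (rows, grouped by role) on each array (columns) as its log2 intensity minus the gene's mean over the 10 arrays; red is above and blue below that mean. The 7 arrays with a Cd2 level under 9 stand left of the line; Cad is blue on all 3 arrays to the right of it, at 9.23 to 9.31 against 10.06 to 10.24, and Utp20 is red there.

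Among the abundant phosphoproteins of the nucleolus, nucleolin (Ncl), which binds ribosomal DNA and its transcripts, varied less than any other member. It read 11.95, 11.90, 12.01, 11.88 and 11.87 with WASP and 11.85, 11.96, 11.89, 11.90 and 11.77 without it, an SD over all 10 arrays of 0.066. Its difference was -0.05 (SE 0.07). Npm1, the nucleophosmin gene whose human counterpart supplies the first part of the fusion, read 11.43, 11.22, 11.42, 11.36 and 11.40 with WASP and 11.41, 11.43, 11.56, 11.43 and 11.21 without it. The genotypes overlapped and the difference was 0.04 (SE 0.08). Whether the probe set also reads the transgene was not tested. Nolc1, a nucleolar chaperone of snoRNPs, differed by 0.04 (SE 0.13) and had the largest spread of the 3, from 9.55 in WASP-intact 4 to 10.16 in WASP-deficient 2.

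Among the 4 snoRNP proteins WASP-deficient 2 was the highest tumour for 3. Nop56 and Nop58, the paired scaffold proteins of the box C/D particles that guide ribose methylation, differed by -0.05 (SE 0.10) and -0.12 (SE 0.10). Nop56 read 11.70, 11.83, 11.67, 11.58 and 11.62 with WASP and 11.60, 11.88, 11.71, 11.33 and 11.63 without it, so both its highest and its lowest tumour lacked WASP. Across the 7 Cd2-low tumours the pair had a Pearson r of 0.55, given as a description. Fbl (fibrillarin), the methyltransferase of the same particles, was 0.03 higher (SE 0.10), from 10.91 in WASP-intact 4 to 11.39 in WASP-intact 3. Dkc1 (dyskerin), which converts uridine to pseudouridine in the H/ACA particles, read 10.52 in WASP-deficient 2 and 9.80 in WASP-deficient 4, both without WASP, and 10.23 in the highest WASP-intact tumour. Its difference was -0.03 (SE 0.13).

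RNA polymerase I was represented by its large catalytic subunits Polr1a and Polr1b and by Mybbp1a, a nucleolar protein that binds the polymerase. All 3 were lower without WASP on average by amounts within their errors, of which Polr1a turned higher under either rescaling: -0.01 (SE 0.08) for Polr1a, -0.10 (SE 0.10) for Polr1b and -0.07 (SE 0.08) for Mybbp1a. Polr1b read 10.26, 10.36, 10.28, 10.35 and 10.36 in the WASP-intact tumours. In WASP-deficient 1, 2, 3 and 5 it read 10.03, 10.53, 10.33 and 10.24, and WASP-deficient 4 was the lowest of all, so the tumours without WASP lay on both sides of that range.

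The 6 small subunit factors had 6 negative differences, with a median of -0.097, but again none passed. Rrp9 turned positive without WASP-intact 1 (0.0965) and with the Xist level, which stands for the sex of the mouse, as a covariate (0.0685, SE 0.33). Without WASP-deficient 3 Rrp12 was at -0.0818 and Nop14 at -0.0505. Utp20, a very large protein of the particle that assembles on the 5′ part of the ribosomal transcript, had the smallest p of the whole set. It read 8.65, 8.63, 8.76, 9.09 and 9.07 with WASP and 8.97, 8.86, 8.37, 8.42 and 8.54 without it, a difference of -0.21 (SE 0.15, unadjusted p 0.192 in limma). It was -0.1314 without the Cd2-high tumours, -0.1431 without WASP-deficient 3 and -0.0044 with array weights. The 3 highest of these 10 values are those of the Cd2-high tumours, 2 of which kept WASP. Rrp12, needed for export and maturation of the precursor subunit, differed by -0.18 (SE 0.13) and was lowest in WASP-deficient 3 at 7.43. Nop14, another protein of that particle, differed by -0.13 (SE 0.10) and was also lowest there at 8.69, on the array whose tested genes had the low median. Rrp9, the U3 snoRNP protein, had the largest spread of the group, with 9.62 in WASP-intact 1 and 9.40 in WASP-deficient 2 against 8.70 to 9.14 in the other 8. Wdr43 (-0.06, SE 0.07) and Rcl1 (-0.06, SE 0.08), both parts of the same assembly line, varied by SDs of 0.086 and 0.098.

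Of the large subunit factors 6 were higher and 3 lower (8 and 1 under either rescaling), with differences from -0.03 to 0.11. Bop1, Pes1 and Wdr12 form the PeBoW complex, which matures the large subunit RNAs. Bop1 read 10.26, 10.30, 10.27, 9.60 and 9.68 with WASP and 9.74, 10.27, 10.56, 9.90 and 9.96 without it (difference 0.06, SE 0.20). Pes1 read 9.63, 9.77, 9.75, 9.51 and 9.55 with WASP and 9.59, 9.79, 9.41, 10.04 and 9.41 without it (difference 0.00, SE 0.13). WASP-deficient 3 was thus the highest tumour for Bop1 and among the 2 lowest for Pes1, while WASP-deficient 4 was the highest for Pes1. Wdr12 differed by -0.01 (SE 0.10), between 9.25 and 9.69. Over the 7 Cd2-low tumours, as a description, the Pearson r was 0.56 for Bop1 and Wdr12, 0.42 for Pes1 and Wdr12 and -0.42 for Bop1 and Pes1. Nop16 had the smallest p among the higher genes, with a difference of 0.11 (SE 0.09, unadjusted p 0.241 in limma). Mrto4, which prepares the site of the ribosomal stalk, was 0.09 higher (SE 0.14) and reached its highest level, 10.48, in WASP-deficient 4. Nop2 (a methyltransferase of ribosomal RNA), Gnl3 (nucleostemin), Pa2g4 and Nip7 differed by -0.03 to 0.05.

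The 3 genes of polyamine and pyrimidine synthesis were all higher without WASP on average in the main comparison, but not under every setting: without the Cd2-high tumours the differences were 0.01 for Odc1, 0.01 for Srm and -0.03 for Cad, and with array weights that of Cad was -0.02. With the Xist covariate they were -0.14 (SE 0.26) for Odc1, 0.09 (SE 0.26) for Srm and -0.22 (SE 0.40) for Cad. They also had 3 of the 6 largest spreads in the set, with SDs of 0.244 to 0.427 beside a median of 0.15 for the members and 0.20 for all tested genes. Odc1 (ornithine decarboxylase), the entry enzyme of polyamine synthesis, read 9.44, 9.52, 9.65, 8.89 and 9.13 with WASP and 9.29, 9.76, 9.43, 9.77 and 9.20 without it. The difference of 0.17 (SE 0.17, unadjusted p 0.348 in limma) was within this spread. Srm (spermidine synthase) was 0.10 higher (SE 0.15), from 10.90 in WASP-intact 4 to 11.63 in WASP-deficient 2. Cad, the enzyme that begins pyrimidine synthesis, read 10.11, 10.11, 10.24, 9.23 and 9.31 with WASP and 9.25, 10.19, 10.13, 10.06 and 10.12 without it. Its difference of 0.15 (SE 0.25) came with the largest spread of any member, and 3 tumours, 2 with and 1 without WASP, were far below the other 7. Without those 3 tumours the difference was -0.03 (SE 0.09).

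The mitochondrial chaperonin Hspd1 and its cochaperonin Hspe1 differed by -0.07 (SE 0.09) and -0.05 (SE 0.09). These genes lie head to head on chromosome 1, and RefSeq lists more than 1 start site for Hspd1. The one used here lies 216 bases from that of Hspe1. Another lies past the Hspe1 start, so that the genes overlap, and the Hspd1 E-box printed above is 80 bases before that other one. The stretch from the start site used here to that of Hspe1 is shown because it is upstream sequence of both genes (chr1:55087932-55088148, GRCm38.p6, plus strand, on which Hspe1 reads forward and Hspd1 backward; no E-box is in it).
Hspd1 and Hspe1: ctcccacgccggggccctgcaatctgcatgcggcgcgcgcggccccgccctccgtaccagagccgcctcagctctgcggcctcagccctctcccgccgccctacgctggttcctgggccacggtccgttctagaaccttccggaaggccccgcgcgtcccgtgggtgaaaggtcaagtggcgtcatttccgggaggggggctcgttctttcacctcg

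Hspd1 read 11.13, 11.21, 11.42, 11.16 and 11.32 with WASP and 11.26, 11.31, 11.21, 11.10 and 11.03 without it. Hspe1 read 11.07, 10.90, 11.04, 10.75 and 10.78 with WASP and 10.76, 10.93, 10.78, 10.97 and 10.84 without it. WASP-intact 3 was the highest tumour for Hspd1 and WASP-intact 1 for Hspe1, and the pair had a Pearson r of 0.30 over the 7 Cd2-low tumours.

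The rest of the pathway, taken from lists of further genes, was also without a call by genotype. Of 46 other small subunit factors 15 were higher and 31 lower (median -0.07), and of 44 other large subunit factors 10 were higher and 34 lower (median -0.049). With arrays centred the counts were 17 and 29, and 11 and 33. With quantile normalization repeated they were 18 and 28, and 11 and 33. Both scores were lowest on WASP-deficient 3 (-0.15 and -0.17), whose tested genes had the low median, and next on WASP-deficient 5 (-0.11 and -0.12). In the other WASP-deficient tumours they were 0.00 to 0.12. The gene of smallest p in these lists was Rrs1, a large subunit factor, at -0.35 (SE 0.12, unadjusted p 0.0149 and adjusted p 0.999 in limma). Mdn1, the giant ATPase that strips factors from the large subunit, differed by -0.22 (SE 0.10). Riok1 (-0.19, SE 0.10) and Utp14a (-0.20, SE 0.12) led the small subunit list. Other snoRNP proteins counted 7 higher and 7 lower, with Rpap3, a chaperone of their assembly, at 0.23 (SE 0.11). Other RNA polymerase I genes counted 10 higher and 5 lower, and exosome genes 4 higher and 10 lower, with the nuclease Xrn2 at -0.17 (SE 0.08). Of 56 ribosomal protein genes with their own probe set 25 were higher and 31 lower (median -0.012; 28 and 28 with arrays centred, 23 and 33 with quantile normalization repeated), Rpl12 having the smallest p at -0.29 (SE 0.10). Other polyamine and nucleotide synthesis genes counted 10 higher and 3 lower, and other chaperones 8 higher and 6 lower. None of these genes passed the adjusted threshold.

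The widest separation of tumours in the set was that of Cad, and it followed the Cd2 level. Because these 3 tumours were set apart by their own data and not by the design, the values are described with no test. Cad read 9.23 in WASP-intact 4, 9.31 in WASP-intact 5 and 9.25 in WASP-deficient 1, against 10.06 to 10.24 in the other 7 tumours. The gap between the nearest tumours was 0.75, a 1.68-fold step, and 219 of the 12670 genes (1.73%) had a gap as large on that side. The Cad promoter is shown because this gene has the widest step of the set (chr5:31054530-31054809, GRCm38.p6, plus strand); its RefSeq window held no CACGTG, which says only that these letters are not there.
Cad: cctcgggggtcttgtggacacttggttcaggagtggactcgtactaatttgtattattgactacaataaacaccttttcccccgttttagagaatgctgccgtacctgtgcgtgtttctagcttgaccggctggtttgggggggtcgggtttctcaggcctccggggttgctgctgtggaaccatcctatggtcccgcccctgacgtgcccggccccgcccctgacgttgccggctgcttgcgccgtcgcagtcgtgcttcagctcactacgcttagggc

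In 4 other members all 3 Cd2-high tumours were below the remaining 7 by smaller gaps. Bop1 read 9.60, 9.68 and 9.74 (WASP-intact 4, WASP-intact 5 and WASP-deficient 1) against 9.90 to 10.56, a gap of 0.15. Nolc1 read 9.55, 9.67 and 9.68 against 9.78 to 10.16, a gap of 0.11. Srm (10.90, 10.97 and 10.99 against 11.05 to 11.63) and Polr1a (9.08, 9.09 and 9.01 against 9.14 to 9.37) were separated by 0.05 each, less than the spread within either side. Utp20 went the other way, at 9.09, 9.07 and 8.97 against 8.37 to 8.86, a gap of 0.11.

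These counts have to be read against a background in which many genes follow the Cd2 division. The 5 members below are 16.7% of the 30, where 16.1% of all tested genes were below, and the 1 member above is 3.33%, where 14.4% of all genes were above. The share below is at the background. The 3 synthesis genes together scored -0.50, -0.37 and -0.33 in these tumours against 0.03 to 0.36 in the others, while the small subunit genes scored 0.03, 0.06 and 0.00 against -0.27 to 0.17. With quantile normalization repeated Hspe1 joined the genes below; the other 4 settings tried gave the same 5 below and 1 above, and the Cad gap was 0.70 to 0.75.

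**Figure D3:**
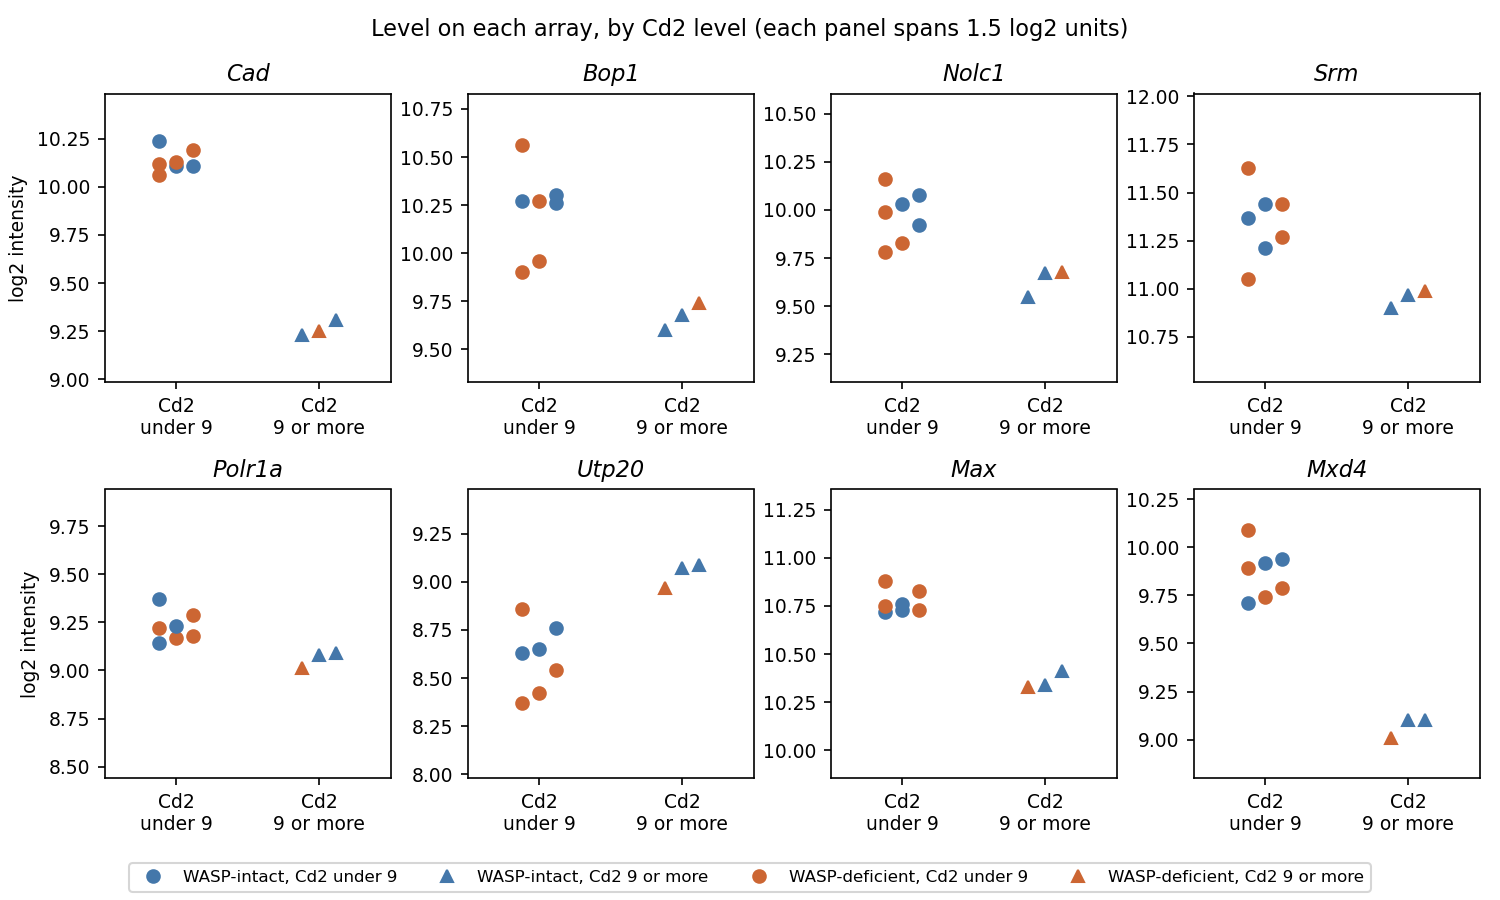
Log2 intensity of 6 members and of Max and Mxd4 in each tumour (vertical axis, 1.5 log2 units in each panel), for the 7 tumours with a Cd2 level under 9 (circles) and the 3 with 9 or more (triangles); blue is WASP-intact and orange WASP-deficient. Cad, Max and Mxd4 leave empty gaps of 0.75, 0.31 and 0.61 between the sides; the other panels nearly touch.

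Other genes of the pathway fell on both sides of this division, where 16.1% of all tested genes were below and 14.4% above. Of the other small subunit factors 4 of 46 were below (8.7%) and 4 above (8.7%), smaller shares than over all genes. The large subunit factors also had smaller shares, with 4 of 44 below (9.09%) and 5 above (11.4%). Among them Rrp1b was below (8.93 to 9.06 against 9.39 to 9.72) and Rrp15 above (8.51 to 8.76 against 7.71 to 8.12). Among 15 RNA polymerase I genes the largest gap was that of Taf1c, a subunit of its promoter selectivity factor, below by 0.61 (8.12 to 8.34 against 8.95 to 9.57). In nucleotide synthesis 3 of 13 genes (23.1%) were below, among them Dhodh, which acts after Cad in the pyrimidine pathway (7.91 to 8.01 against 8.07 to 8.30, a gap of 0.06). Atic of purine synthesis was the 1 gene above (7.69%), at 11.07 to 11.12 against 10.40 to 10.68. Cct8, a subunit of the cytosolic chaperonin, had the widest gap of all these lists, above by 0.97. Ribosomal protein genes counted 6 below (10.7%) and 1 above (1.79%) of 56.

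Max, the obligate partner of Myc, was below in the Cd2-high tumours as well, at 10.41, 10.34 and 10.33 against 10.72 to 10.88. Of 12 genes of the Myc and Max network 5 were below and none above (4 with arrays centred), against 16.1% and 14.4% of all genes: Max, the Max-binding repressors Mxd4 (gap 0.61), Mxd1 (0.13) and Mxi1 (0.08), and Mlxip (0.04). Myc itself did not separate, with 11.41, 11.45 and 11.42 against 11.17 to 11.86.

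Fibroblast markers followed the same division. The score of 9 fibroblast markers was 0.34 to 0.78 in the Cd2-high tumours and -0.61 to 0.05 in the others. Of the 9, 4 were above (3 under either rescaling) and none below. These 4 are 44.4%, where 14.4% of all genes were above. Muscle markers did not follow it: their score was 1.64 in WASP-intact 4, the lowest tumour for 11 members, but 0.17 and -0.25 in the other Cd2-high tumours, against -0.34 to -0.13 in the Cd2-low ones. The scores of the macrophage, epithelial, adipocyte, endothelial and erythroid markers overlapped between the sides. Their part in the members' values was not tested. Of 29 replication and mitosis genes 3 were below (10.3%, where 16.1% of all genes were) and none above.

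Myc read 11.74, 11.67, 11.80, 11.41 and 11.45 with WASP and 11.42, 11.86, 11.71, 11.17 and 11.79 without it, and Mycn, its relative, 6.86, 6.74, 7.06, 7.07 and 6.98 with WASP and 6.82, 6.72, 6.50, 6.99 and 7.20 without it. No difference by genotype was detected (Myc -0.02, SE 0.14, and Mycn -0.10, SE 0.13, both with an adjusted p of 0.999 in limma). The lowest Myc level was in WASP-deficient 4 and the highest in WASP-deficient 2, the tumour with the highest score of the set as deposited; with arrays centred WASP-deficient 3 (0.17) was above it (0.15). Since the tumours fall into clusters, correlations were taken within the 7 Cd2-low ones, which share neither animal nor array.

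Members leaned towards a positive relation with Myc, and that lean rested on the tumours at the ends of the Myc range. The median Pearson r of the 30 genes was 0.35, 20 positive and 10 negative, beside a median of 0.00 over all tested genes. Without WASP-deficient 4 and WASP-deficient 2, the 2 tumours farthest from the median Myc level, it was -0.18 with 11 positive, beside 0.05 for all tested genes. Myc read only 11.67 to 11.80 in the Cd2-low tumours then left, against 11.17 to 11.86 before. An r without the 2 tumours thus rests on little variation in Myc. Leaving out WASP-deficient 4 alone gave 0.22, WASP-deficient 2 alone 0.23 and WASP-deficient 5 alone 0.65. The lean was not shared by the further ribosome assembly genes. Over all 7 tumours their median r was -0.02 for small subunit factors (21 of 46 positive) and -0.09 for large subunit factors (17 of 44). It was -0.09 for snoRNP proteins, -0.28 for RNA polymerase I genes and -0.52 for ribosomal proteins (5 of 56). Other polyamine and nucleotide synthesis genes had 0.61, and replication and mitosis genes 0.33.

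Polr1b alone had a positive r at an unadjusted p under 0.05 (3.33% of the 30, where 4.19% of all genes had one), and no member had a negative one (2.13% of all genes). Its r was 0.83 (exact two-sided permutation p 0.0363, adjusted p 0.676) with a Spearman rho of 0.39 (exact permutation p 0.396, adjusted p 0.996), and r turned to -0.87 without the 2 tumours. Nop56 (r 0.85, exact permutation p 0.0619; rho 0.32, exact permutation p 0.498) turned to -0.90 in the same way, and Nop2 (r 0.75, exact permutation p 0.0685; rho 0.32, exact permutation p 0.498) to -0.93. Srm, with r 0.72 (exact permutation p 0.0849) and rho 0.39 (exact permutation p 0.396), turned to -0.73. These negative r rest on Myc levels of 11.67 to 11.80 and do not show that the relation reverses. Cad kept its direction, with r 0.69 (exact permutation p 0.122, adjusted p 0.677), rho 0.86 (exact permutation p 0.0238, adjusted p 0.996) and r 0.63 without the 2 tumours. Its level varied little in the Cd2-low tumours, from 10.06 to 10.24. At the other end Mrto4 had r -0.65 (exact permutation p 0.175; rho 0.04, exact permutation p 0.963) and Pes1 r -0.63 (exact permutation p 0.143; rho -0.14, exact permutation p 0.783), both being highest in WASP-deficient 4. Nop16, also highest there, had r -0.55 (exact permutation p 0.243) and rho -0.46 (exact permutation p 0.302). For the set 60 relations with Myc and Mycn were computed, with p-values adjusted over all tested genes, and none passed. The smallest exact permutation p that 7 tumours allow is 0.000198. A single gene at that p could not pass an adjustment over all tested genes, so the lack of a call does not decide whether a relation exists.

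With Mycn the lean was negative. Mycn read 6.50 to 7.20, close to the filter of 6.35, and was lowest on WASP-deficient 3, whose tested genes had the low median. How much of its variation is background was not tested. The median r was -0.27, with 8 positive and 22 negative, beside 0.16 for all tested genes. Without WASP-deficient 3 and WASP-deficient 5, the 2 tumours farthest from the median Mycn level, it was -0.33 with 11 members positive, beside -0.11 for all tested genes. Without WASP-deficient 5 alone it was -0.08, without WASP-deficient 2 alone -0.18, without WASP-intact 3 alone -0.51 and without WASP-deficient 3 alone -0.57. Over all 7 Cd2-low tumours the median r with Mycn was 0.02 for other small subunit and 0.05 for other large subunit factors. It was 0.08 for ribosomal proteins, -0.24 for other polyamine and nucleotide synthesis genes and -0.26 for replication and mitosis genes. No member had a positive r at an unadjusted p under 0.05 (7.57% of all genes) and Bop1 had a negative one (3.33% of the members, 3.48% of all genes), with r -0.80 (exact permutation p 0.0339, adjusted p 0.429), rho -0.64 (exact permutation p 0.139) and r -0.43 without the 2 tumours. Gnl3 followed at r -0.67 (exact permutation p 0.0942; rho -0.68, exact permutation p 0.11) and -0.72 without them. On the positive side Rcl1 led with r 0.54 (exact permutation p 0.212; rho 0.39, exact permutation p 0.396).

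**Figure D4:**
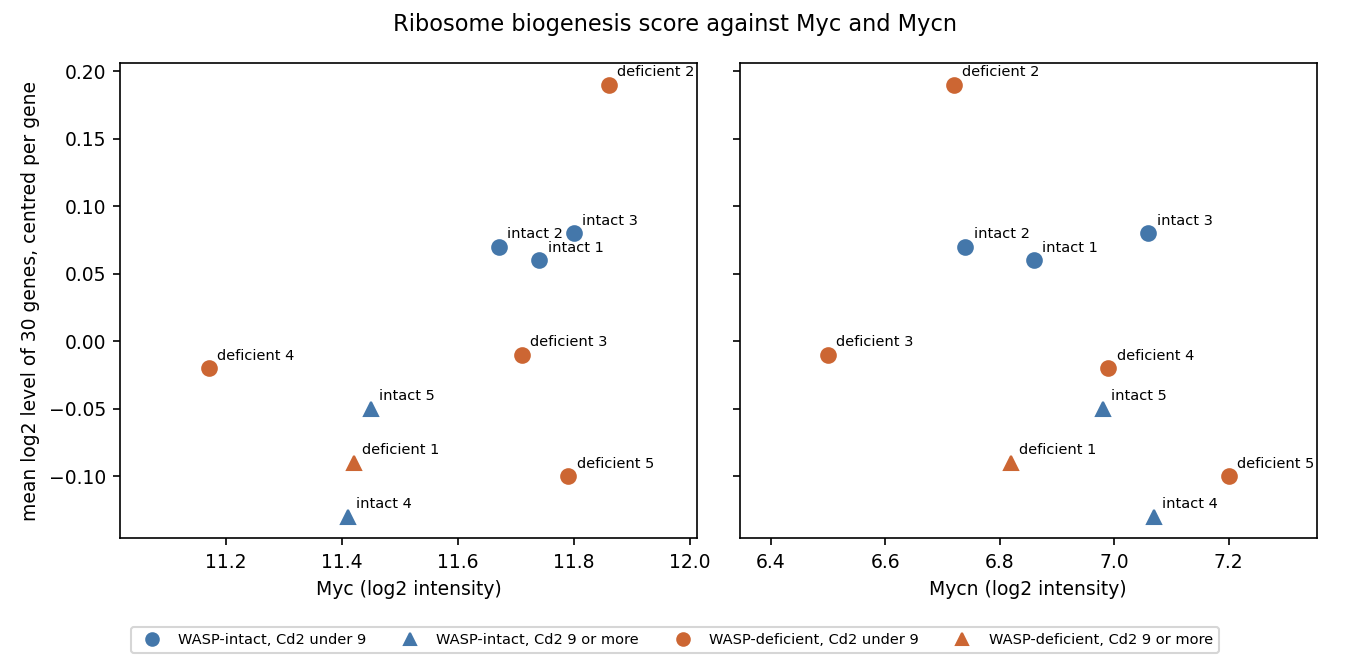
Score of the set (mean of 30 genes, each centred on its mean over the 10 arrays, log2) against the log2 intensity of Myc (left) and Mycn (right), 1 point a tumour; blue is WASP-intact, orange WASP-deficient, triangles the 3 tumours with a Cd2 level of 9 or more. WASP-deficient 2 is highest in Myc (11.86) and, as deposited, in score (0.19; with arrays centred WASP-deficient 3 is above it), while WASP-deficient 4 is lowest in Myc (11.17) with a score of -0.02, and WASP-deficient 5, with a Myc level of 11.79, scores -0.10.

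Members varied together in part. Over the 7 Cd2-low tumours the median r of the 435 pairs was 0.41 and 80.2% were above 0, and a first principal component held 42.3% of the variance there and 51.0% over all 10 tumours. The pairs share the same arrays and any shift of an array, so these are descriptions, and no value over all tested genes stands beside them. Whether the members vary together more than other genes was not tested. Of the 30 genes 22 had an SD below the median SD of all tested genes. The members are bright, with 20 of the 30 above the 75th percentile of mean level, and this comparison of SDs was not matched for level.

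For 6 members a pair of probe sets carried the symbol and nothing else, which gives a look at the measurement itself. As a description, over the 10 arrays they had a Pearson r of 0.96 for Hspe1, 0.95 for Odc1, 0.88 for Hspd1, 0.85 for Mrto4, 0.71 for Fbl and 0.67 for Wdr12. In 5 of the 6, all but Fbl, the brighter and thus used probe set is numbered among genes of another chromosome, so it may read a related copy of the gene, which was not tested. The genotype differences of the pairs were alike in sign: 0.17 and 0.23 for Odc1, 0.09 and 0.03 for Mrto4, -0.07 and -0.03 for Hspd1, -0.05 and -0.04 for Hspe1, 0.03 and 0.10 for Fbl and -0.01 and -0.09 for Wdr12. By Cd2 level the dimmer Fbl probe set had all Cd2-high tumours just below the others, at 10.24 to 10.45 against 10.46 to 10.76. The brighter one overlapped, at 10.91 to 11.11 against 10.96 to 11.39, and so did the dimmer ones of the other genes.

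**Figure D5:**
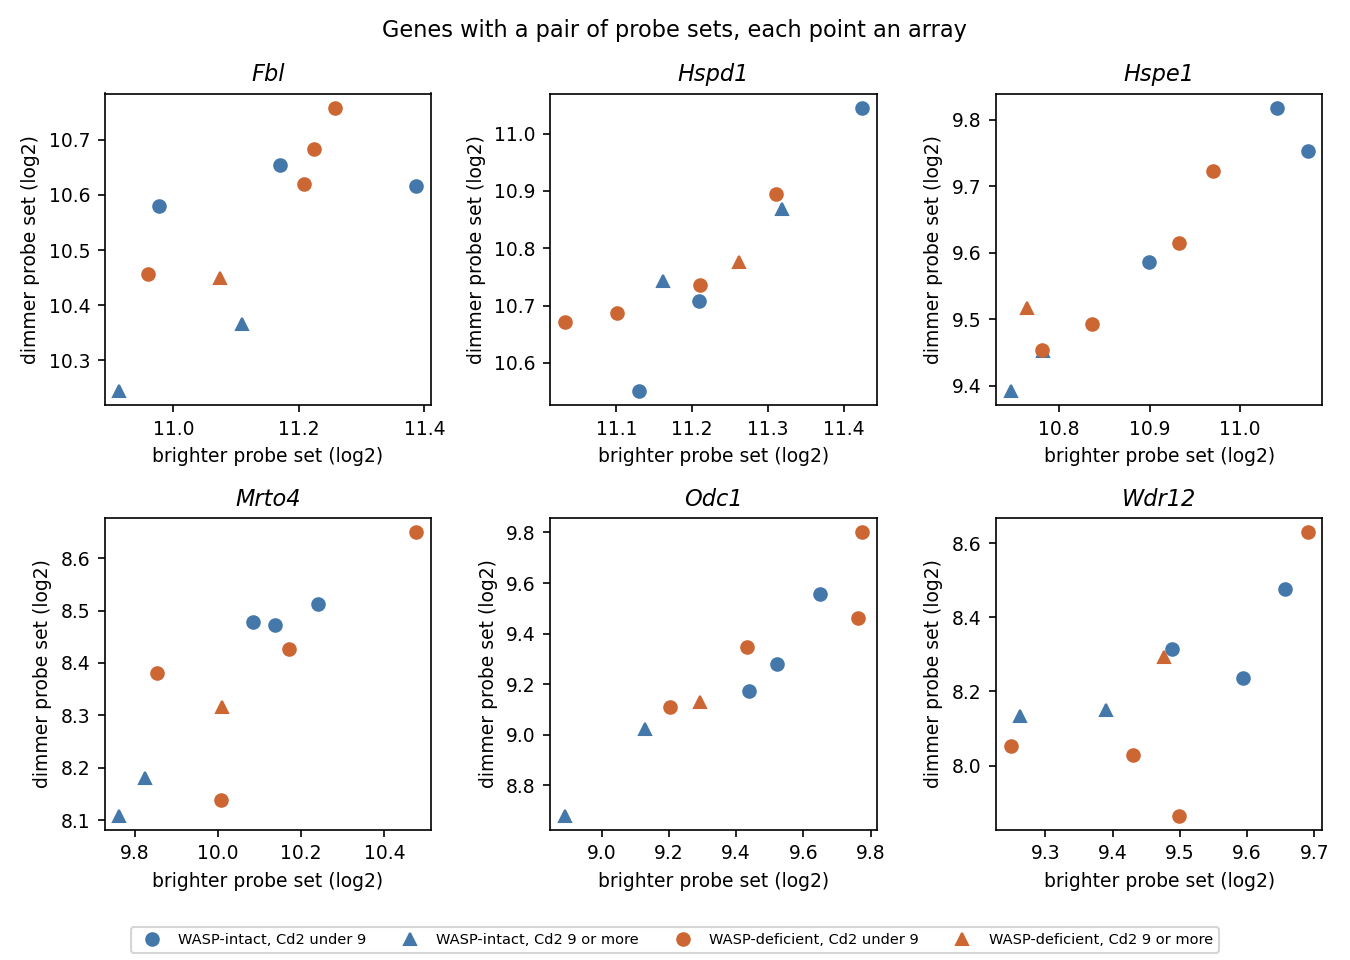
Brighter probe set (horizontal, the one used) against the dimmer one (vertical) of the same gene, both in log2 intensity, for the 6 members with a pair; each point is a tumour, blue WASP-intact and orange WASP-deficient, triangles Cd2-high. Points follow a rising line closely for Hspe1 and Odc1 (r 0.96 and 0.95) and loosely for Wdr12 (0.67).

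Several members also host snoRNA genes, whose products are processed from the host transcript and used in the same pathway. RefSeq places 10 snoRNA genes inside 5 of the members, and 4 of them had a probe set of their own. Snora75 in Ncl read 8.36, 8.95, 9.0, 8.85 and 8.65 with WASP and 8.50, 8.47, 8.42, 8.61 and 8.38 without it, a difference of -0.29 (SE 0.12) with an adjusted p of 0.999 in limma. Snord82, also in Ncl, differed by -0.04 (SE 0.13), Snord57 in Nop56 by 0.12 (SE 0.16) and Snord53 in Wdr43 by -0.14 (SE 0.12), none of them passing. The r of snoRNA and host over the 7 Cd2-low tumours was 0.47 for Snora75, 0.44 for Snord53, 0.10 for Snord82 and 0.00 for Snord57.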

How the data were processed

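Total RNA of 10 primary lymphomas was measured on 1 Affymetrix array each. The authors deposited linear intensity values processed by RMA, per the submitters' processing notes, for 34760 probe sets (3.309 to 15587.9). Array medians were 116.7 to 122.7, no columns were identical, and log2 was taken here because the values were linear, not log2. A probe set was named where the platform table gave 1 symbol (21640; 1321 had several and 11799 none). Probe sets whose mean was under the 40th percentile (log2 6.35) were left out, and the brightest was kept per gene, leaving 12670 genes.

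Genotypes were compared with limma 3.58.1 in R 4.3.3 over all of these genes, with Benjamini-Hochberg adjustment, and the fit and the correlation step were tested on simulated data. Correlations used Python 3.11.15 with numpy 2.4.6 and scipy 1.17.1, with exact permutation p-values. The precision is limited by the 5 arrays a genotype, whose p-values measure the spread between mice.

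Any of the 32 genes could be described by name. Members with the smallest p, the highest and lowest SD in a role group or the highest and lowest r, those central to a role, Was, Myc, Mycn, Max and Cd2 were given values, and of other lists the 2 genes of smallest p. Further genes, named for their Cd2 gaps, were chosen after their values were seen. The members and all lists were chosen with earlier results of these data known. Alternatives covered the filter, the probe set rule, the variance model, normalization, covariates, the replicate block and left-out arrays; preferring probe sets numbered among the gene's own chromosome was added after seeing the data. Promoters came from RefSeq (GRCm38.p6).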

Additional observations from a re-analysis of the deposited data

Results flagged for a closer look

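In a group of 5 arrays, a value was looked at again when its gap to the nearest of the others, divided by the group's range, exceeded 0.71. Of 72 groups examined 3 had such a value, where chance gives about 1 in 20, and all 3 values are those of WASP-deficient 1, the only Cd2-high tumour of its genotype. Cad read 9.25 there against 10.06 in the nearest other WASP-deficient tumour (ratio 0.869). Max read 10.33 there against 10.73 (ratio 0.731). Cd2 read 11.52 there against 6.90 (ratio 0.854), which restates how this tumour was set apart, since the Cd2 level defines the Cd2-high tumours.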

How the results depend on the processing

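No member passed the genotype test under any of the 25 alternatives, whose lowest adjusted p over members was 0.659 in limma (without WASP-deficient 1). Of 750 member values 686 kept their sign and 64 changed it, none of them called, and 14 members kept it in every setting. With the Xist level as a covariate, which stands for the sex of the mouse, the median was -0.1223 with 7 members higher and 23 lower. Without the 3 Cd2-high tumours it was -0.0647 with 5 higher and 25 lower. With each array left out in turn it ran from -0.0675 to -0.0016. The replicate numbers do not pair the tumours (correlations of the deviations -0.714 to 0.366), and the fit with the replicate block gave a median of -0.0184 and 0 members called. Over all genes 1 was called in the main analysis, 0 with the Xist covariate or the replicate block, 2 with unequal variances, without the Cd2-high tumours or without WASP-deficient 1, and 4 without WASP-intact 3. Was lost its call with the Xist covariate (-1.0634, adjusted p 0.3764 in limma) and with the block (-1.1422, adjusted p 0.1357 in limma). With the Xist covariate its SE rose from 0.0845 to 0.1412, and that of Ncl from 0.066 to 0.1088. With the block the SE of Was was 0.0876, in a fit with fewer degrees of freedom. In the same way the SE of Npm1 rose from 0.0819 to 0.1395 with the Xist covariate and that of Cad from 0.2543 to 0.4034. A covariate that overlaps the genotype widens the SE of gene after gene like this. Signs and the median of -0.1223 under the Xist covariate are thus less certain. How far the Xist level and the genotype overlap was not measured directly. The median r with Myc changed from 0.35 to -0.18 without the 2 tumours farthest in Myc, by construction a fit of fewer tumours over Myc levels of only 11.67 to 11.80. With single tumours left out it was 0.22 to 0.65, and that with Mycn was -0.57 to -0.08. With 5 tumours a genotype, the printed intervals are those of single genes without adjustment and are no limit of detection. Differences beyond them could also go uncalled: Adipoq, at -1.07 (SE 0.23), had an adjusted p of 0.999 in limma.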
